A study of Homo sapiens with 6 samples.

Results

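The merged expression table of heat shocked HEK293 cells holds 117001 rows, of which 92971 carry no gene name. Here the 465 unnamed rows were described whose interval is longer than 300 nt, lies wholly within the interval of a named row, and has an expression value above 1 FPKM in the authors' pooled control column, their pooled heat shock column or both. FPKM counts fragments per kilobase of transcript, scaled to the mapped fragments of the library, so it can be compared between loci of different length. The rows were thus selected on the pooled values, which are given below as a description and without a test. The 465 rows, called members from here on, were proposed as candidate intronic RNA inside named genes.

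HEK293 is a line derived from human embryonic kidney. The 3 control samples were left untreated at 37 °C and the 3 heat shock samples were aliquots of passaged cells held at 45 °C in a tube in a water bath, for 30 min. The labels give no transgene, knockdown or other agent for any sample, and all were total RNA depleted of ribosomal RNA, 1 library each. The labels do not say that the 3 samples of a group came from separate cultures, so the p-values below measure only the spread between these samples.

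Total RNA without selection for poly(A) tails holds, beside mature mRNA, the introns of genes still being transcribed and short-lived noncoding RNAs. Many human promoters fire in both directions, and the antisense product is often an unstable, spliced or unspliced noncoding RNA that starts just upstream of the gene. Assemblers such as Cufflinks read the strand of a transcript from the splice sites of its introns, usually GT at the donor and AG at the acceptor, and leave unspliced transcripts of an unstranded library with no strand. Heat shock is known to repress much of transcription, to impair splicing of many introns and to extend some transcripts past their gene ends.

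The table gave no positions from which the label of intronic RNA could be judged. All 465 carried an interval identical to that of a named row, and so did all 797 enclosed unnamed rows of any level, so the table gave none of them a position of its own. The members fell into 152 such intervals on 22 chromosomes, from 6055 to 880822 nt long with a median of 75372.5 nt, while the median interval over all unnamed rows was 874 nt. In 79 of the 152 intervals there was 1 named row, and 207 members lay in intervals with more than 1 named gene. A single member was found in 82 intervals, whereas 21 intervals held 5 or more. No strand was given for 424 members, 20 were on the plus strand and 21 on the minus strand. A strand was thus given for 8.82% of the members and for 0.798% of all unnamed rows.

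Of the 152 intervals, 151 had 1000 nt or more outside the genes annotated in the assemblies, and the last was 1 nt short of that. Of the 19551 named intervals of the table, 17.6% had 1000 nt or more outside. The median member interval had 22426 nt outside annotated genes, with median shares of 41.0% outside, 53.1% intronic and 5.78% exonic. The member intervals were also long, against a median of 26327 nt for all named intervals and 30836.5 nt for those with an outside part. In the 125 intervals with members or other enclosed rows lacking a strand, 664 such rows stood against 1854 clusters of unstranded transcripts from the 6 assemblies, 931 outside annotated genes and 923 within them. The number of rows equalled the number of outside clusters in 29 intervals and the number of all clusters in 10. Over the whole genome, 112330 clusters of unstranded transcripts lay inside named intervals and 95077 outside. Of the outside clusters 94.0% overlapped a row of the table, yet only 797 unnamed rows shared a named interval. The members are therefore called unnamed rows that share a named interval, since these intervals cannot tell which of them are intronic RNA.

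The table gave pooled values for every member, and 37 members could also be given a position, described below. The rows of the table are numbered in order of chromosome, strand block and position. Members without a strand were placed where the rows of that kind in the interval equalled the unstranded clusters outside annotated genes in number. Clusters within annotated genes were not considered for them, so a row that came from such a cluster would be missed or misplaced. Matching by order was checked on rows that do have an interval of their own. These lay in gaps between named intervals, where all clusters were counted. The matching found the right cluster for 94.7% of 1246 rows standing alone in their gap, 87.8% of 970 in pairs and 83.4% of 876 in threes. Within named intervals the choice of clusters was narrower, so these rates may not hold for the members. For rows on a strand standing alone in their gap it was right for 60.5% of 306. Members on a strand were therefore placed only at an end of the interval. Their spliced cluster had to end within 100 nt of it and reach beyond the annotated genes there. Of the 37 placed members 24 had no strand and 13 were on a strand. The only row of its kind in the interval was placed for 31, and the other 428 members have no position here.

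The 13 placed members on a strand are spliced, and their junctions carry what is known of them at the level of sequence. The assemblies held 19 different introns for them, from 72 to 15902 nt long with a median of 651 nt. Of these, 17 had GT-AG ends in the reference genome and the other 2 had GC-AG ends. Over the 1642 introns of all stranded transcripts without an accession, 56.5% had GT-AG ends. In GENCODE release 44, 9 of the 19 introns are annotated, in 7 of the 13 members. The donor and acceptor of 5 members are shown because they give the strand, and 4 of the 5 identify an annotated noncoding transcript. Sequences are from GRCh37, the build of the deposited coordinates, read 5′ to 3′ on the strand of the member with 30 bases to each side of the splice site, and capitals mark the GT of the donor and the AG of the acceptor.
XLOC_014289 donor, interval of SEC24C, minus strand, chr10:75503945-75504004: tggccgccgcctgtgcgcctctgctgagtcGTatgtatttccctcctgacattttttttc
XLOC_014289 acceptor, minus strand, chr10:75502940-75502999: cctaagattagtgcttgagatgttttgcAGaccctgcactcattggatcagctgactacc
XLOC_047508 donor, interval of BCAS3, minus strand, chr17:59476570-59476629: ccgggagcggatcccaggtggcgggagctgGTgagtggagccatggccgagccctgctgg
XLOC_047508 acceptor, minus strand, chr17:59471079-59471138: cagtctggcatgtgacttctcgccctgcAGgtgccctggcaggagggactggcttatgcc
XLOC_002221 donor, interval of CNIH3, minus strand, chr1:224803284-224803343: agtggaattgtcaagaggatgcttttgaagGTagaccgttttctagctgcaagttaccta
XLOC_002221 acceptor, minus strand, chr1:224799265-224799324: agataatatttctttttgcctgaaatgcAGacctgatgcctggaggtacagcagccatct
XLOC_077927 donor, interval of LOC401052, plus strand, chr3:10028919-10028978: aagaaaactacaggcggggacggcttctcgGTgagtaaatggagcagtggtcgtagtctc
XLOC_077927 acceptor, plus strand, chr3:10029469-10029528: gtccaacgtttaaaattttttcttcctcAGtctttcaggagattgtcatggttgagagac
XLOC_091032 donor, interval of KATNA1, plus strand, chr6:149914633-149914692: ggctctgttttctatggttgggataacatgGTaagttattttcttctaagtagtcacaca
XLOC_091032 acceptor, plus strand, chr6:149915088-149915147: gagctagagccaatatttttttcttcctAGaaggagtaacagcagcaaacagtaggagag
The intron of XLOC_047508 is that of TBX2-AS1, the antisense neighbour of the developmental transcription factor gene TBX2. The intron of XLOC_002221 is that of CNIH3-AS2, antisense to CNIH3, an auxiliary subunit gene of glutamate receptors. The intron of XLOC_077927 belongs to a noncoding gene known by its Ensembl identifier ENSG00000291224 beside EMC3-AS1, and that of XLOC_091032 to RPS18P9, a transcribed processed pseudogene. The SEC24C junction matched no annotated intron.

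The 24 placed members without a strand have no junction, and the sequence of 4 of them is shown to give the kinds of motif found. Windows of 300 bases around the centre were searched on both strands in the 35 placed members of 300 nt or more and in 39126 unnamed rows outside named intervals above 1 FPKM. The 35 include the spliced members, whose window can lie in an intron, as it does for XLOC_091032. GC content was likewise taken over the whole locus with its introns. The values are thus partly those of sequence not kept in the spliced transcript. The letters AATAAA, the core of the polyadenylation signal, were in 37.1% of the placed members (13) and 31.3% of the other rows. The letters GAANNTTC, facing units of the element to which heat shock factors bind, were in 5.71% (2) and 7.69%. A run of 10 or more A or T was in 20.0% (7) and 9.19%, and such a run can overlap AATAAA only in part. The median GC content of the placed members was 42.6%, ranging from 32.2 to 62.9%, and that of the other rows 47.1%. A match of letters is a description and no site. The 4 windows of 120 bases are on the plus strand of GRCh37, with the motif in capitals.
XLOC_015889, interval of RTKN2, chr10:63946733-63946852, AATAAA on the other strand: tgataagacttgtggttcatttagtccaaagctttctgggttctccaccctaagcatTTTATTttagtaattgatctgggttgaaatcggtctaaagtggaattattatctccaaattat
XLOC_037348, interval of CEP152, chr15:49011083-49011202, none of the motifs: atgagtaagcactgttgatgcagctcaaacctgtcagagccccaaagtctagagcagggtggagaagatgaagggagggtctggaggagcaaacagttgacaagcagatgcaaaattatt
XLOC_066007, interval of WDR75, chr2:190343428-190343547, run of T: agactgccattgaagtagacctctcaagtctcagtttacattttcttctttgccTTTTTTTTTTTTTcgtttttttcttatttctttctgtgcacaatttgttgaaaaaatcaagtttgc
XLOC_108915, interval of APTX, chr9:33009237-33009356, GAANNTTC: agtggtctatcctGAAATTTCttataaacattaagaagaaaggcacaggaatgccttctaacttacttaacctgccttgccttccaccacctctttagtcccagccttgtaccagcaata

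The libraries differed in ways the groups did not share, and these differences touch every member. Transcripts without strand numbered 141632, 194489 and 45600 in controls 1 to 3 and 17304, 30334 and 151889 in heat shock 1 to 3, so control 3 stood with heat shock 1 and 2, and heat shock 3 with controls 1 and 2. The depth of the libraries relative to control 3, read from the ratio of coverage to FPKM, lay between 1 and 2.03. The sums of FPKM in heat shock 1 and 2 were 1505260 and 1755210, and those of the other 4 libraries lay between 628239 and 865977. The median change of named genes was 0.69 on the log2 scale as deposited and between -0.005 and 0.15 after 3 other scalings. Of the markers, VIM and KRT18, which HEK293 cells express, were listed in 5 and 6 of the 6 libraries. KRT8, the partner of KRT18, was listed at 3.27, 1.61 and 0 FPKM in control and at 0 in all heat shock libraries, and the kidney factors PAX2 and LHX1 stayed below 0.5 in every library, while PTPRC and CD3E of blood cells, ALB of liver and COL1A2 of fibroblasts stayed below 0.4 FPKM in all of them.

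In the authors' pooled columns the members were low in control and more often higher than lower in heat shock. The median pooled control value was 1.26 FPKM, with quartiles of 1.02 and 1.67, and the median pooled heat shock value was 1.52 FPKM, with quartiles of 1.02 and 4.06. The pooled heat shock value was the higher one in 301 of the 465 members, or 64.7%. This was the case for 74.2% of the 325 named rows that share the members' intervals, for 67.9% of all 24030 named rows and for 28.3% of the 39992 unnamed rows above 1 FPKM outside named intervals. On the log2 scale the median of heat shock over control, over the rows above 0 in both columns, was 0.55 for the members, 1.30 for the named rows of their intervals, 1.47 for all named rows and -0.58 for the unnamed rows outside. The named rows were not selected on these values, so the medians stand side by side without a comparison. A value above 1 in both columns was found for 251 members, in heat shock alone for 104 and in control alone for 110.

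**Figure D1:**
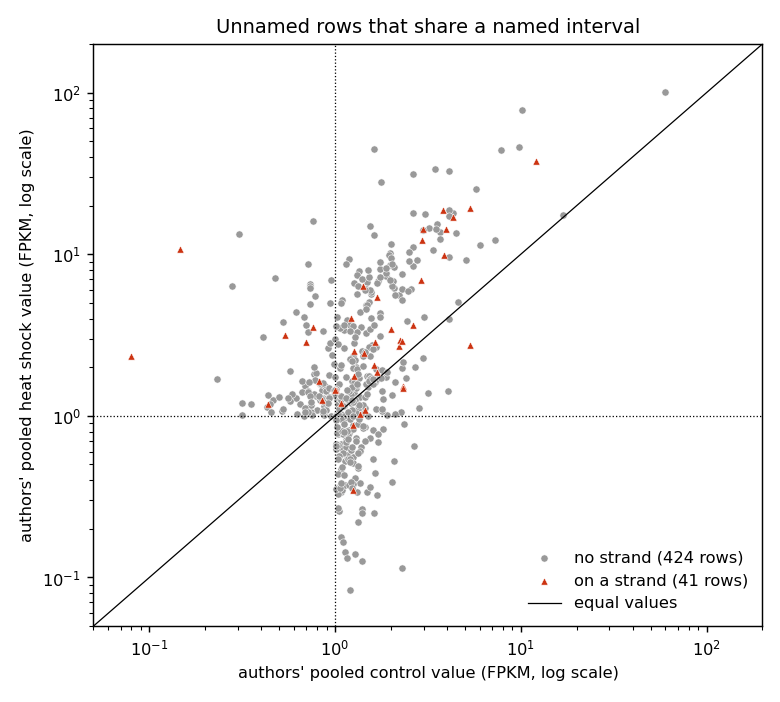
Authors' pooled heat shock value against the pooled control value of the 465 unnamed rows that share a named interval, both in FPKM on log axes, with 1 point per row above 0 in both columns. Triangles are the 41 rows on a strand, circles the 424 rows without one, dotted lines mark 1 FPKM and the solid line equal values. The points stand in an L along 1 FPKM with a tail to high heat shock values, where 43 members passed 10 FPKM against 4 in control. Named rows and unnamed rows outside named intervals also passed 10 FPKM more often in pooled heat shock.

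The 41 members on a strand had a median of 1.63 FPKM in pooled control and 2.87 in pooled heat shock, and 34 of them (82.9%) were higher in heat shock. The 424 members without strand had medians of 1.24 and 1.43, and 63.0% were higher in heat shock. In both kinds of member the pooled columns moved the same way. In pooled heat shock 43 members were above 10 FPKM, against 4 in pooled control. The count rose in the other groups of rows as well. It was 6143 against 2224 of the 24030 named rows, and 94 against 33 of the 325 named rows in the members' intervals. Of the 39992 unnamed rows outside it was 1206 against 370, so the rise is not particular to the members. XLOC_003065 in the interval of LZIC, XLOC_027246 in that of FGD4 and XLOC_109349 in that of FAM27C were listed at 0 in pooled heat shock. These 3 were named after their values were seen.

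The 8 highest members in pooled heat shock, also named after their values were seen, were led by XLOC_073235 in the interval of the microRNA genes MIR3648 and MIR3687 with 60.1 FPKM in pooled control and 100.4 in pooled heat shock. XLOC_007492 had 10.2 and 77.8 FPKM in the interval of DNAJB4, an HSP40 cochaperone gene. XLOC_094818 had 9.77 and 45.8 FPKM in the interval of NHSL1, and XLOC_045197 had 1.62 and 44.9 in that of PHLPP2, a protein phosphatase gene. All 4 had the higher pooled value in heat shock. The next were XLOC_031830 with 7.79 and 43.9 FPKM in the interval of the transcription factor gene KLF5, and XLOC_014289 with 12.1 and 37.9 in that of SEC24C, a cargo-binding subunit of COPII vesicle coats. XLOC_031271 had 3.45 and 33.6 in the interval of MPHOSPH8, which encodes a reader of methylated histone H3, and XLOC_084928 had 4.13 and 32.7 in that of the ETS factor gene ELF2.

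At the threshold of 1 FPKM the members just inside were XLOC_056833 and XLOC_056860 in the interval of ZNF536, with 0.947 and 1.00067 and with 1.00209 and 0.983 FPKM in pooled control and heat shock, and XLOC_076125 in that of MIAT with 0.676 and 1.00225. Just outside were XLOC_116137 in the interval of ZNF75D with 0.999964 and 0.435, XLOC_097656 in that of FZD9 with 0.586 and 0.998, and XLOC_058659 in an interval of leukocyte receptor genes with 0.857 and 0.995. The level thus cut through a continuous range.

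The members crowded into a few intervals, the 5 fullest holding 132 of the 465 (28.4%). The fullest was that of ZNF536, a zinc finger repressor gene of neurons, at chr19:30716427-31049211, with 44 members among 73 enclosed unnamed rows. Their pooled values ran from 0.516 to 4.03 FPKM in control and from 0.131 to 15.4 in heat shock, the highest being XLOC_056873 with 3.54 and 15.4. ZNF536 itself was listed at 0.117, 0 and 0.752 FPKM in controls 1 to 3 and at 0, 0.541 and 0 in heat shock 1 to 3, so it stayed under 1 FPKM in each of the 6 libraries. Of this interval 147147 nt lay outside the annotated gene. The mean FPKM per base there, over transcripts without strand, was 0.164, 0.354 and 0 in control and 0.0989, 0.146 and 0.204 in heat shock, with the groups overlapping.

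The interval of CRYBB2P1, IGLL3P and LRP5L on chromosome 22 held 34 members of 51 enclosed rows, the highest being XLOC_076024 with 1.96 FPKM in pooled control and 6.91 in pooled heat shock. CRYBB2P1 is a pseudogene of a lens crystallin, and was listed at 3.59, 0.987 and 2.62 FPKM in control and 5.61, 4.99 and 1.92 in heat shock. The interval of TULP4 on chromosome 6 held 12 members of 14, the highest being XLOC_095292 with 2.75 and 9.22, beside TULP4 at 0.330, 0.250 and 0 FPKM in control and 0.917, 0 and 0.294 in heat shock. In both intervals the per-library values of the annotated gene overlapped between the groups.

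The interval of MIR3648 and MIR3687 at chr21:9689003-9886313 differed from the others in that all 16 of its enclosed rows were members and in that it has no intron: 197070 of its 197311 nt lay outside the 2 microRNA annotations. The mean FPKM per base outside was 11.1, 5.45 and 12.9 in control and 20.1, 21.6 and 6.22 in heat shock, against medians over the 152 intervals between 0.0835 and 0.282. Heat shock 1 and 2 were above all 3 controls and heat shock 3 was below control 1. The share of outside bases under a transcript was 18.7, 26.7 and 17.3% in control and 16.8, 12.7 and 33.8% in heat shock, so the libraries with the higher level had the smaller share covered. MIR3648 was listed at 18.0, 11.5 and 26.1 FPKM in control and 4.24, 12.0 and 10.0 in heat shock. The table has 3 rows of that name, and short RNA of this size is poorly captured by this kind of library, so its FPKM is uncertain.

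Few intervals of the table held members, 0.777% of the named intervals, and 1.35% of all named rows shared one. Against that share the counts for the gene lists below are too small to say anything about the members. None of the 18 heat shock genes on the list (chaperones such as HSPA1A and DNAJB1, and their factors HSF1 and HSF2) shared an interval with a member, nor did any of the 14 snoRNA host genes in the table or of the 5 nuclear long noncoding RNAs such as MALAT1. Of the 19 SR protein and CLK kinase genes, which control splicing, SRSF1 alone did, with XLOC_050935 at 2.22 and 5.59 FPKM and XLOC_050936 at 1.47 and 3.23 in pooled control and heat shock. SRSF1 was listed at 7.37, 2.87 and 11.3 FPKM in control and 12.8, 21.5 and 4.90 in heat shock, the first 2 heat shock libraries being above all controls and heat shock 3 below control 1. The part of its interval outside genes had 1.05, 0.346 and 0.528 mean FPKM per base in control and 2.21, 1.13 and 0.114 in heat shock, in which heat shock 1 and 2 were again above all controls. Of the 126 ribosomal protein genes 1 shared an interval, RPL35A, with XLOC_082654 at 4.09 and 18.7 FPKM.

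Stress genes outside the list did share intervals with members, and 3 such intervals are given after their values were seen. XLOC_003523, in an interval with the small heat shock protein gene HSPB7, had 1.51 FPKM in pooled control and 1.51 in pooled heat shock. The metallothionein interval, whose genes bind metals and respond to stress, held XLOC_044603 with 1.07 and 1.03 and XLOC_044604 with 1.36 and 0.605. The third is that of DNAJB4, with the second highest member. Its interval held 4 members, at 1.36, 1.88, 10.2 and 0.683 FPKM in pooled control and 4.42, 7.45, 77.8 and 4.06 in pooled heat shock. DNAJB4 was listed at 0.600, 0.112 and 0.583 FPKM in control and 1.55, 0 and 0.475 in heat shock. The part of the interval outside genes had 0.609, 0.380 and 0.821 mean FPKM per base in control and 1.66, 2.03 and 0.242 in heat shock. Heat shock 1 and 2 were thus above the controls in the outside part, and heat shock 3 was below them, while no transcript without strand was assembled in the introns of the interval in any library. In the KLF5 interval the outside part was at 0 in all 3 controls and at 0.0449, 0.274 and 0.0299 in heat shock, and KLF5 was listed at 1.77, 0 and 0.352 FPKM in control and 4.39, 5.54 and 0.175 in heat shock.

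The 37 placed members were from 203 to 16433 nt long with a median of 732 nt. Of these, 20 overlapped an exon annotated in GENCODE release 44, 14 lay in introns alone and 3 lay in no gene. For members without a strand, clusters within the genes annotated in the assemblies had been left out, so these counts partly follow from the placing. Of the unnamed rows above 1 FPKM outside named intervals, 60.7% lay in no gene and 15.9% overlapped an exon, with a median length of 779 nt. The intronic ones by GENCODE include XLOC_037348 in CEP152, which builds centrioles, and XLOC_065285 and XLOC_065286 in the kinase gene MAP3K2. By the placing, these members lie outside the genes annotated in the assemblies, from which the FPKM of CEP152 and MAP3K2 was taken. The exonic ones include long noncoding genes other than those the interval is named for, such as LINC02585 (XLOC_078083) and VPS13B-DT (XLOC_104595). XLOC_104067 overlaps LINC01606, whose earlier name LOC100507651 its interval carries. Others overlap exons of protein-coding genes, among them TSSC4 (XLOC_021233), CFL1 (XLOC_022815), ALG5 (XLOC_031616), PHLPP2 (XLOC_045197) and APTX (XLOC_108916). Within 1000 nt of the start of a protein-coding gene lay 11 placed members, of which 7 were on a strand, and 5 of these 7 were on the strand opposite to the gene. Members on a strand were placed only at an end of the interval and beyond its annotated genes, so these counts partly follow from the rule. No such count was made for the unnamed rows outside, and the counts are given as description only.

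For the level in each library, a placed member was taken as listed where an assembled transcript without an accession covered at least 0.5 of it, and its FPKM was summed. Of the 37 placed members, 23 were listed in 1 library, 10 in 2, 3 in 3, 1 in 4 and none in 5 or 6. The controls 1 to 3 listed 11, 6 and 4 of them and heat shock 1 to 3 listed 14, 16 and 5. Heat shock 1 and 2 thus listed the most members. Of the unnamed rows outside named intervals, the controls listed 25.2, 37.4 and 3.17% and heat shock 1 to 3 listed 3.40, 3.996 and 18.0%. The 37 members were selected on the pooled values and then by the placing, which the outside rows did not pass. The numbers thus stand side by side without a comparison. Members listed in heat shock alone numbered 18, in control alone 11 and in both 8, and these counts may follow from the same selection. For 18 members the pooled control value was above 0 with no control library listing a transcript, and the same held in heat shock for 11. Some of these libraries held a spliced transcript that covered less of the member, such as XLOC_047508 in control 2 with 1.43 FPKM and XLOC_020441 in control 2 with 1.56, so a value of 0 here does not mean that no transcript was assembled.

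**Figure D2:**
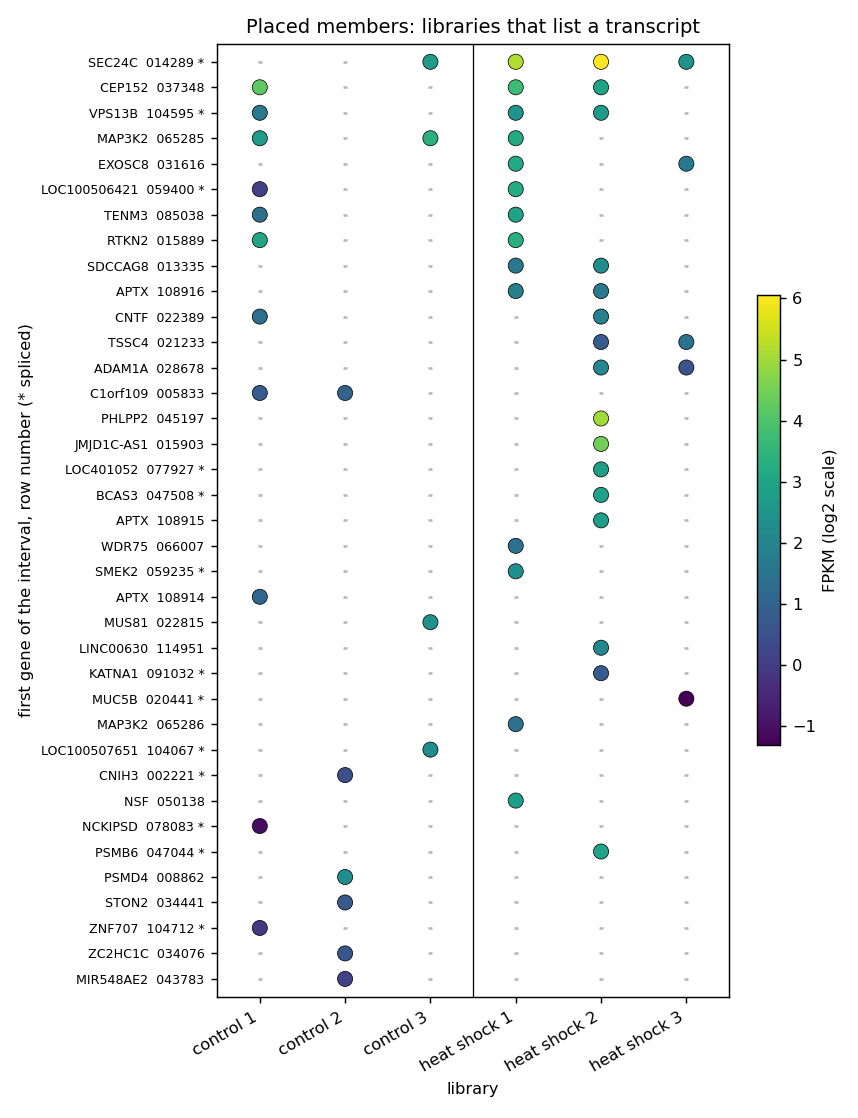
FPKM of the 37 placed members (vertical axis, first gene of the interval and row number, with an asterisk for spliced members) in each of the 6 libraries (horizontal axis). A point stands where the library lists a transcript over the member, coloured by FPKM on a log2 scale. The points are most numerous in heat shock 1 (14 members) and heat shock 2 (16), and no member has points in 5 or 6 libraries.

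The member listed in 4 libraries was XLOC_014289 at chr10:75502488-75504073, minus strand, whose junction is shown above. Its FPKM was 0, 0 and 6.63 in control and 35.7, 66.3 and 5.53 in heat shock. Heat shock 1 and 2 were above all other libraries, while heat shock 3 was below control 3, so the groups overlapped. The intervals that Cufflinks gave for single libraries were 3.10 to 10.2 FPKM in control 3, 25.6 to 45.9 in heat shock 1, 52.0 to 80.5 in heat shock 2 and 2.26 to 8.81 in heat shock 3. The 3 heat shock libraries shared an intron of 1005 nt, and control 3 had one of 1078 nt from the same donor. The exon nearest to SEC24C, on the opposite strand, began at -57 nt from the SEC24C start in control 3, at -71 in heat shock 1 and at -89 in heat shock 2 and 3. SEC24C itself was listed at 1.88, 0.632 and 0 FPKM in control and 6.68, 4.28 and 0 in heat shock, and thus also highest in heat shock 1 and 2. The place is annotated as ENSG00000279088, an entry still to be experimentally checked.

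**Figure D3:**
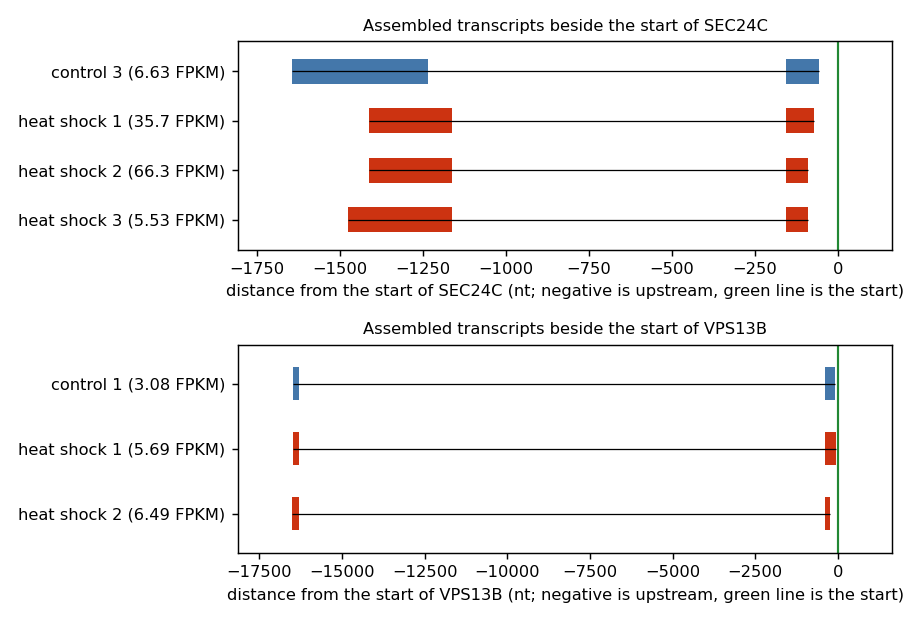
Exons of the assembled transcripts of XLOC_014289 beside the start of SEC24C and of XLOC_104595 beside the start of VPS13B, 1 line per library with its FPKM, against the distance from the gene start in nt (negative is upstream, the vertical line is the start). Boxes are exons and lines introns. Beside SEC24C the exon near the start ends at -57 to -89 in the 4 libraries, and beside VPS13B at -69 to -241 in 3.

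XLOC_104595 in the interval of VPS13B, a lipid transport gene, had the same arrangement. It lies at chr8:100008993-100025425 on the minus strand, 69 nt from the VPS13B start and opposite to it. Its FPKM was 3.08, 0 and 0 in control and 5.69, 6.49 and 0 in heat shock. Heat shock 1 and 2 were above control 1 and heat shock 3 was at 0, so the groups overlapped. The 3 libraries that listed it had an identical intron of 15902 nt, which is that of the divergent transcript VPS13B-DT. VPS13B was listed at 0.614, 0 and 0.446 FPKM in control and 0.231, 0 and 0.386 in heat shock, below the member in each of the 3 libraries that listed the member.

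The other 2 members in 3 libraries had no strand. XLOC_037348 lies at chr15:49010941-49011345, in an intron of CEP152 by GENCODE alone. It was listed at 18.6, 0 and 0 FPKM in control and 13.2, 7.89 and 0 in heat shock, with its highest value in control 1. CEP152 was listed at 1.40, 0.619 and 0.860 in control and 2.36, 0 and 0.382 in heat shock. XLOC_065285 lies at chr2:128114123-128114476, in an intron of MAP3K2 by GENCODE alone. It was listed at 6.65, 0 and 10.4 FPKM in control and 8.999, 0 and 0 in heat shock. MAP3K2 was listed at 0.785, 0.0992 and 0.818 in control and 2.22, 0 and 0.165 in heat shock. Both members stood above their gene in each library that listed them, and their groups overlapped.

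**Figure D4:**
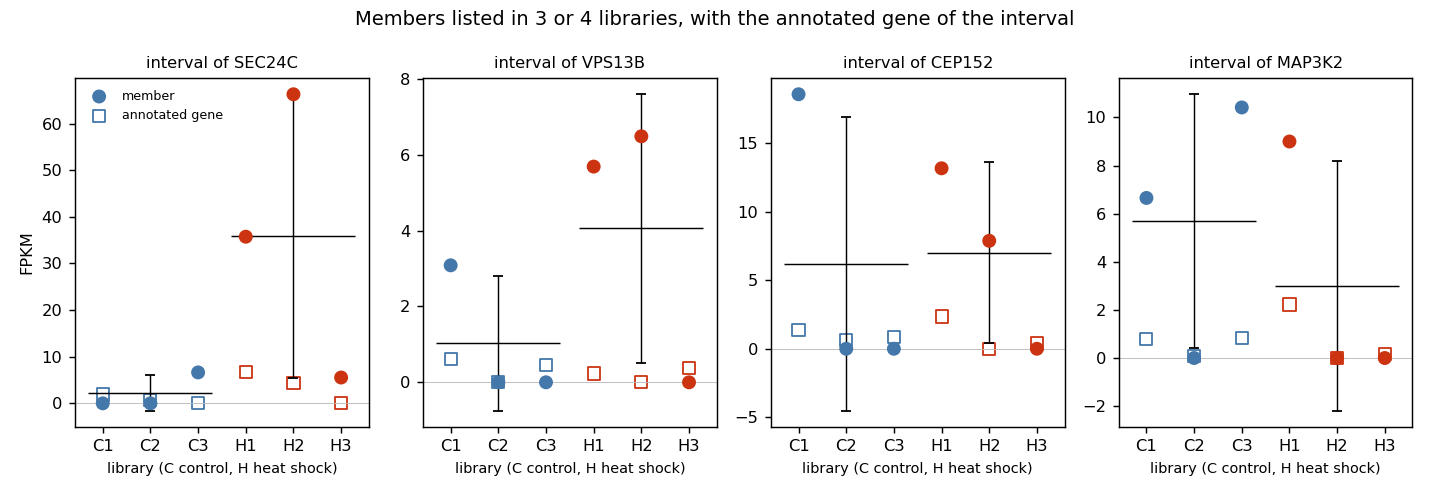
FPKM of the 4 members listed in 3 or 4 libraries (filled circles) and of the annotated gene of the interval (open squares) in controls 1 to 3 (blue) and heat shock 1 to 3 (red), 1 panel per interval. Horizontal lines are the mean of the member over the 3 libraries of a group and vertical bars its SD. The SEC24C member reaches 35.7 and 66.3 FPKM in heat shock 1 and 2 and 5.53 in heat shock 3, and in all 4 panels the groups overlap.

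Members listed in 1 or 2 libraries gave values of similar size. XLOC_045197, which overlaps an exon of PHLPP2, was listed in heat shock 2 alone with 31.9 FPKM. XLOC_015903 in the interval of JMJD1C, a histone demethylase gene, was listed in heat shock 2 alone with 21.9. XLOC_031616, in the interval of the exosome subunit gene EXOSC8, overlaps an exon of ALG5. It was listed in heat shock 1 and 3 with 8.70 and 3.13 FPKM and in no control. XLOC_108916, which overlaps an exon of the DNA repair gene APTX, was listed in heat shock 1 and 2 alone, with 3.56 and 3.19 FPKM. In the other direction XLOC_005833 in C1orf109 was listed in controls 1 and 2 alone with 1.73 and 1.95 FPKM. XLOC_059400, which overlaps exons of the neural factor gene POU3F3 on the same strand, was listed with 1.09 FPKM in control 1 and 9.31 in heat shock 1. An intron of 142 nt inside it was assembled in 5 libraries, and the transcript with this intron in control 3, which covered less of the member and was not counted, had 43.4 FPKM, above the listed values.

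Heat shock was compared with control over all named genes and all unnamed rows with a mean of at least 1 FPKM, on log2(FPKM + 1), which understates the change of low values. With limma, 0% of the 9514 rows tested were called at an adjusted p of 0.05, and so were 0 of the 18 placed members among them, 1 of which had an unadjusted p under 0.05. This was XLOC_014289, with a log2 fold change of 3.68 (SE 1.16) over 3 samples in each group and a limma adjusted p of 0.782. The share of all rows with an unadjusted p under 0.05 was not counted, here or in the comparisons below. Such counts therefore say nothing about the members as a set. XLOC_104595 had a log2 fold change of 1.21 (SE 0.95), XLOC_037348 of 0.90 (SE 1.26) and XLOC_065285 of -1.04 (SE 1.11), each with limma adjusted p of 0.782 to 0.784. Of the 18 members 10 were at 0 in all 3 controls and reached the minimum through heat shock alone, and none the other way, so their median log2 fold change of 1.02 carries no weight. It was 0.64 with no minimum and between 0.40 and 0.52 after the 3 other scalings, beside 0.94 over all unnamed rows tested and 0.69 over named rows as deposited. The test was also run on simulated data of this size, drawn without a floor at 0. It recovered 0% of rows changed by 4 on the log2 scale, 74.0% at 6 and 94.5% at 8. The absence of calls thus does not show an absence of change. These rates cover rows of all kinds, and XLOC_014289 was at 0 in controls 1 and 2. They therefore do not give what was detectable for this member.

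The ratio of a placed member to the shortest annotated gene of its interval was formed in each library on the same scale. The median log2 ratio over the 37 placed members was -0.63, -0.14 and -0.70 in control and 0, 0 and -0.34 in heat shock. The medians of 0 in heat shock 1 and 2 fell on members such as XLOC_020441, at 0 FPKM with a gene also at 0. They therefore give no level relative to the gene and cannot be set above the controls. The median of heat shock 3 lay among those of the controls. Of 19 ratios tested, 18 of members and 1 of an enclosed row below the threshold, limma called 0% and none of the members had an unadjusted p under 0.05. For XLOC_014289 the log2 fold change of the ratio to SEC24C was 2.65, with an adjusted p of 0.613 from limma. Without control 3 it was 3.996 with an adjusted p of 0.00523, and control 3 is the only control that listed this member. For 5 members, XLOC_104595 among them, the shortest gene was a microRNA or small nucleolar RNA at or near 0, so their ratio repeats the change of the member itself.

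Of the 325 named rows that share the members' intervals, 88 had a mean of at least 1 FPKM, 74 were at 0 in all libraries, and limma called 0 of the 88. ZIC2, a zinc finger factor gene, had an unadjusted p of 0.0386 (log2 fold change 1.84, limma adjusted p = 0.782), with 0, 0 and 3.08 FPKM in control and 4.54, 5.23 and 4.43 in heat shock, so that the groups did not overlap. SCARNA21, a small Cajal body RNA, was listed at 6.57, 0 and 40.0 FPKM in control and at 0 in all 3 heat shock libraries, with a log2 fold change of -2.76 and an unadjusted p under 0.05. Its pooled values went the other way, with 22.5 FPKM in control and 29.1 in heat shock. The listed values of 0 therefore do not show that this RNA was absent. ZIC2 and SCARNA21 were the 2 of the 88 with such a p, and the share over all rows was not counted. The median log2 fold change of the 88 was 0.37 as deposited and between -0.30 and -0.18 after the 3 other scalings, so no direction can be given for the genes as a group.

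The 428 members without a position were approached through their intervals, by the mean FPKM per base of transcripts without strand in the part outside annotated genes and in the introns. Outside genes, the median over the 152 intervals was 0.282, 0.279 and 0.0835 in control and 0.0959, 0.182 and 0.169 in heat shock. The share of outside bases under such a transcript had medians of 9.19, 13.4 and 1.45% in control and 1.33, 2.20 and 6.05% in heat shock. Between the exons of the 145 intervals with any intron, the median share was 1.75, 3.86 and 0% in control and 0, 0.248 and 0.697% in heat shock. Control 3 thus stood with heat shock 1 and 2 in coverage, as it did in the number of unstranded transcripts, and the part of that difference in the values was not tested. In every library the median share was larger outside genes than in introns. Over all named intervals with 1000 nt or more outside, the median share there was 41.6, 44.3 and 0% in control and 0, 0 and 43.5% in heat shock. Over those with 1000 nt or more of intron, it was 0% between the exons in every library. A larger share outside is thus not particular to the member intervals.

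**Figure D5:**
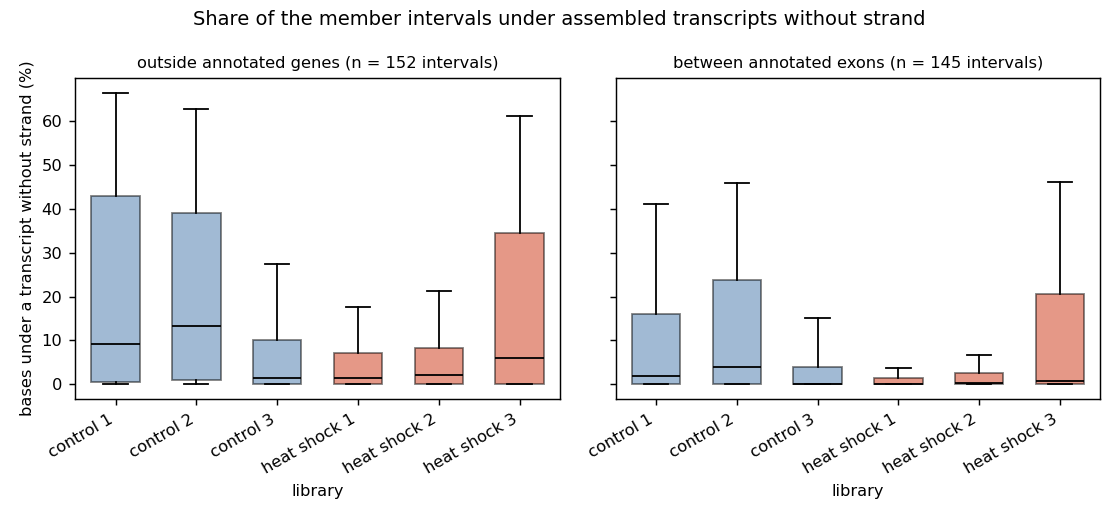
Share of bases under an assembled transcript without strand (vertical axis, percent) in each library for the 152 member intervals outside annotated genes and the 145 with any intron, between annotated exons. Boxes span the quartiles with the median as a line, and whiskers run from the 10th to the 90th percentile. The medians outside genes are 9.19, 13.4 and 1.45% in control and 1.33, 2.20 and 6.05% in heat shock, and control 3 sits with heat shock 1 and 2.

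Between heat shock and control, limma called 0.0326% of the 3063 named intervals tested outside genes and 0 of the 111 member intervals among them. Of these, 2 had an unadjusted p under 0.05. The interval of EXOSC8, ALG5 and SUPT20H had 0, 0 and 8.42 mean FPKM per base in control and 3.18, 10.5 and 1.14 in heat shock, with the groups overlapping. That of CRAMP1L had 1.46, 0.691 and 2.11 in control and 0 in all 3 heat shock libraries. The median log2 fold change was -0.20 over the member intervals and -1.05 over all intervals tested.

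In introns limma called 0.0364% of the 5497 intervals tested and 0 of the 72 member intervals among them, 5 of which had an unadjusted p under 0.05. The interval of CCDC71 and LAMB2P1 had 0.877, 0.853 and 0 mean FPKM per base in control and 4.89, 4.75 and 1.48 in heat shock, a log2 fold change of 2.89 with groups that did not overlap. That of ZNF707 had 0.681, 0.946 and 1.35 in control and 0 in all heat shock libraries, a log2 fold change of -3.40. The other 3 were the intervals of CSNK1E, of HOXD10 and HOXD11, and of TRIM16L. How many of the 5497 intervals had such a p, or groups that did not overlap, was not counted. These 5 are therefore single values and no result about the member intervals. The median log2 fold change was -0.48 over the member intervals and -0.66 over all.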

How the data were processed

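The authors used Trimmomatic for trimming, TopHat2 for alignment to hg19 and, with that build's gene annotation, Cufflinks 2.0.2 for an assembly per library, which were merged before Cuffdiff. All deposited FPKM values are those of each library's assembly and the pooled FPKM of each group, whose scaling between libraries is not given in the sources used here. The columns of the authors' own fold changes, test statistics and p-values were not used, and 0 columns lacked a sample. Fold change, where printed, was computed anew. The members and lists were chosen with earlier results of these data known.

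The measure planned for each library, a transcript over at least 0.5 of the interval, covered 4 members, since each interval equals that of a named row, and transcript lines spanning that much of an interval (1119 lines over 411 members) were 67.0% annotated transcripts and 99.2% spliced. Members were therefore placed by row order, with transcripts joined within 50 nt, and parts of intervals were measured. Coordinates are 1-based on GRCh37, and no autosome or sex chromosome of the assemblies ran past its length there. GENCODE release 44, mapped to GRCh37, gave annotations.

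Tests used limma 3.58.1 with trend in R 4.3.3 on log2(FPKM + 1), or log2(mean FPKM per base + 0.1) with a minimum mean of 0.1 for parts of at least 1000 nt, with Benjamini-Hochberg adjustment. The test was tried on simulated data of 9514 features with 200 changed. Members to be named were those listed in all 6 libraries, ranked by level, p or ratio, of which there were none, the 5 fullest intervals (1 is not reported here), the host lists and the rows at the threshold. Members in 3 or more libraries, and others so marked, were named after their values were seen. Depth, known only as relative depth, limits what a value of 0 means.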

Additional observations from a re-analysis of the deposited data

How the results depend on the processing

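The counts of called members, genes and intervals stayed at 0 with limma under another pseudocount, 3 other scalings, no minimum and a trend left out, with the exceptions given here. At an unadjusted p of 0.05, 1 member was higher, of the genes sharing an interval 1 was higher and 1 lower, of the outside parts 1 was higher and 1 lower, and of the intronic parts 2 were higher and 3 lower. The share over all rows and intervals at this level was not counted, so these counts say nothing about the members as a set. Leaving out each library in turn gave 0 to 1 for members called higher by their ratio to the gene, the 1 being XLOC_014289 without control 3, and 0 for the other counts. The median log2 fold change then ranged from 0.94 to 1.52 for placed members, from -0.42 to -0.024 outside genes and from -0.64 to -0.077 in introns. Over these settings the adjusted p of XLOC_014289 ranged from 0.120 to 0.999973, and that of its ratio from 0.00523 to 0.864.

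Alternatives chosen after seeing the data split the libraries by their number of unstranded transcripts. The split used the same kind of transcript that was then measured, so its results are values and no test of a change. With control 3 against heat shock 1 and 2, where the lone control is assumed to vary like the others, the ratio of XLOC_014289 to its gene had an adjusted p of 0.989, 6 outside parts were called lower, 1 intronic part higher and 2 lower, and the medians turned to 0.78 outside and 0.45 in introns. With controls 1 and 2 against heat shock 3, the median was -1.37 for placed members and 0.056 in introns. The median for placed members was 2.07 with a pseudocount of 0.1. The median outside was -0.66 with median-of-ratios scaling over all rows and -0.71 over named genes above 10 FPKM. With a minimum mean of 1 it was 0.15 outside and 2.08 in introns. With a minimum mean of 10 FPKM 1 member was left, at 3.68, and no ratio could be tested. The median ratio to the gene was -0.10 in control 1 with every transcript line counted, and -0.45 in heat shock 1 where exons had to cover 80% of the member. The cause of these shifts was not tested.

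Same-numbered samples did not deviate together (r of 0.056, -0.11 and -0.19 for the 3 pairs). With 3 samples in each group these values cannot tell whether same-numbered samples were handled as pairs, which stays unknown. With the replicate number as a block, the count of called members stayed at 0 and the adjusted p of XLOC_014289 was 0.263.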
